A study of Mus musculus with 18 samples.

Results

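Desmosomes are the spot-like junctions that rivet epithelial cells, and heart muscle cells, to their neighbours and tie the keratin (in heart muscle, desmin) filaments of adjoining cells into a continuous net. Their membrane layer is made of desmosomal cadherins, the desmogleins and desmocollins, whose outer domains bind those of the neighbouring cell. Inside the cell, the armadillo proteins plakoglobin and plakophilins bind the cadherin tails, and the plakin desmoplakin links them to the filaments. The desmosome genes described here are 10 genes chosen by name: the cadherin genes Dsg2, Dsg3, Dsc2 and Dsc3, the plakin gene Dsp, the armadillo genes Pkp1, Pkp2, Pkp3 and Jup, and Perp, which encodes a small membrane protein of epithelial desmosomes. Each was read on the probe (a transcript cluster of the array) that carried its gene symbol alone, and each had exactly 1 such probe, so the 10 genes stand for 10 of the 19938 genes with a probe of their own. All 10 entered every test.

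Expression was measured on 18 Affymetrix Mouse Gene 1.0 ST arrays in 12 groups, as signal intensities on a linear scale. The cells came from mouse embryonic fibroblasts (MEFs) that carry the doxycycline-dependent transactivator rtTA (ROSA-rtTA) together with Nanog-GFP, a reporter of pluripotency, and that had been given a polycistronic reprogramming cassette and its mCherry marker on a piggyBac transposon. The high-KLF4 cassette (OK+9MS) and the low-KLF4 cassette (OKMS) both encode OCT3/4, KLF4, MYC and SOX2 and differ in the length of the Klf4 cDNA. Both were switched on with doxycycline at 1 µg/mL, and the study asked how the dose of KLF4 changes the epithelial phase of reprogramming.

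For each cassette, sorted mCherry+ cells of days 2, 4, 8 and 18 of doxycycline were measured, with 2 arrays on day 8 (called array 1, which carries no number in its label, and array 2) and 1 array on each other day. The sort kept cells that still expressed the cassette, which on day 18 leaves out cells that had silenced it. The iPSC lines were single clones grown in ES cell medium, A10 and H10 from high-KLF4 and A7 and A9 from low-KLF4, with 1 array each. Primary keratinocytes, from pups of postnatal day 2 and grown in serum-free keratinocyte medium with EGF and cholera toxin, and mESCs with the Nanog-GFP reporter had 2 arrays each. The replicate arrays of mCherry+ cells, keratinocytes and mESCs are from separate experiments, as the study's methods describe. Untreated MEFs, cells of day 6 and TROP2-sorted cells were not analysed here, so the level of each gene before reprogramming is not given.

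Promoter sequence was at hand for the Jup and Dsp genes only (2 of 10 members), the pair whose proteins every desmosome contains. They are shown because KLF4, whose dose separates the cassettes, is a zinc-finger protein that binds CACCC-like motifs, and because ZEB and SNAIL repressors of epithelial genes bind the E-box CACCTG. Each line runs from 250 bases before to 50 bases after a RefSeq start site, with CACCC (or GGGTG, the same motif on the other strand) and CACCTG (or CAGGTG) in capitals. For Jup that site lies inside the gene span given below and is not its outer end.
Jup (chr11:100397741-100398040, minus strand): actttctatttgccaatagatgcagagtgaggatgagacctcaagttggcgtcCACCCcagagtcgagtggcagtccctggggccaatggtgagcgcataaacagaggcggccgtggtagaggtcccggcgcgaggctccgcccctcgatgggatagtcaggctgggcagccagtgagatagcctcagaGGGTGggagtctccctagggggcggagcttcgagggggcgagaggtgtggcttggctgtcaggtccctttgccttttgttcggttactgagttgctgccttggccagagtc
Dsp (chr13:38151044-38151343, plus strand): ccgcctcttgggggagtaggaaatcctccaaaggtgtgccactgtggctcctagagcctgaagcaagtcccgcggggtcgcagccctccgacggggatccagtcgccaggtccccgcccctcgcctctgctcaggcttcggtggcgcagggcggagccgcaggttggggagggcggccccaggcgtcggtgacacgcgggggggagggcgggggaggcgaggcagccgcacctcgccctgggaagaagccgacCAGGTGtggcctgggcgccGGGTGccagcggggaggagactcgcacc
The Jup window held 2 CACCC motifs, 1 on each strand, and no CACCTG. The Dsp window held 1 CACCC and 1 CACCTG, both on the other strand and downstream of the start site. The motifs do not overlap each other in either window. CACCC is common: 57.5% of 32851 promoter windows of this length held it on either strand, and 20.2% held CACCTG. The Jup window was 60.7% G and C with 14 CG dinucleotides, and the Dsp window was 73.0% G and C with 27. These are matches of letters, and binding was not measured.

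The members differ in where they are used. Dsg2, Dsc2 and Pkp2 are the forms found in simple epithelia and heart muscle, while Dsg3, Dsc3 and Pkp1 belong to stratified epithelia such as the epidermis, and Dsp and Jup are part of every desmosome. In the mouse genome (GRCm38.p6) the 4 cadherin genes are close neighbours on chromosome 18, with Dsc3 at chr18:19960930-20002410, Dsc2 at chr18:20030633-20059554, Dsg3 at chr18:20510274-20541310 and Dsg2 at chr18:20558074-20604526. The other genes are scattered: Dsp at chr13:38151294-38198577, Pkp1 at chr1:135871394-135919207, Pkp2 at chr16:16213345-16272712, Pkp3 at chr7:141078229-141090511, Jup at chr11:100368856-100397839 and Perp at chr10:18845071-18857073.

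Signals over all probes ran between 20.2 and 19538.7, with array medians between 139.4 and 161.6, and no detection call came with them, so a low signal cannot be separated from background. The keratinocyte markers (6 genes) summed to 35143 and 35163 in keratinocytes, which fits the label of these arrays, and the pluripotency markers (7 genes) summed to between 29959 and 33829.9 in iPSC clones and mESCs. The day 8 arrays were less alike than other pairs. All 8 fibroblast markers read lower on array 2 than on array 1 of either cassette, and their sums were 11306 against 35999 for high-KLF4 and 13421 against 40652 for low-KLF4. The desmosome genes ran the other way on these arrays: 10 of 10 were higher on array 2 in high-KLF4 and 10 of 10 in low-KLF4 (49.3% and 51.8% of all tested probes were), 6 of them by at least 2-fold in high-KLF4 (2.05% of probes) and 2 in low-KLF4 (1.92%). Their median log2 difference between the arrays was 1.12 in high-KLF4 and 0.57 in low-KLF4, whereas the median absolute difference between the arrays of a pair was 0.08 to 0.11 in keratinocytes, mESCs and iPSC clones. The part of the fibroblast content in the results was not tested. In such bulk samples, fewer cells of a type and less RNA per cell cannot be told apart. A call below means an adjusted p under 0.05 (limma, Benjamini-Hochberg over 23410 probes).

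**Figure D1:**
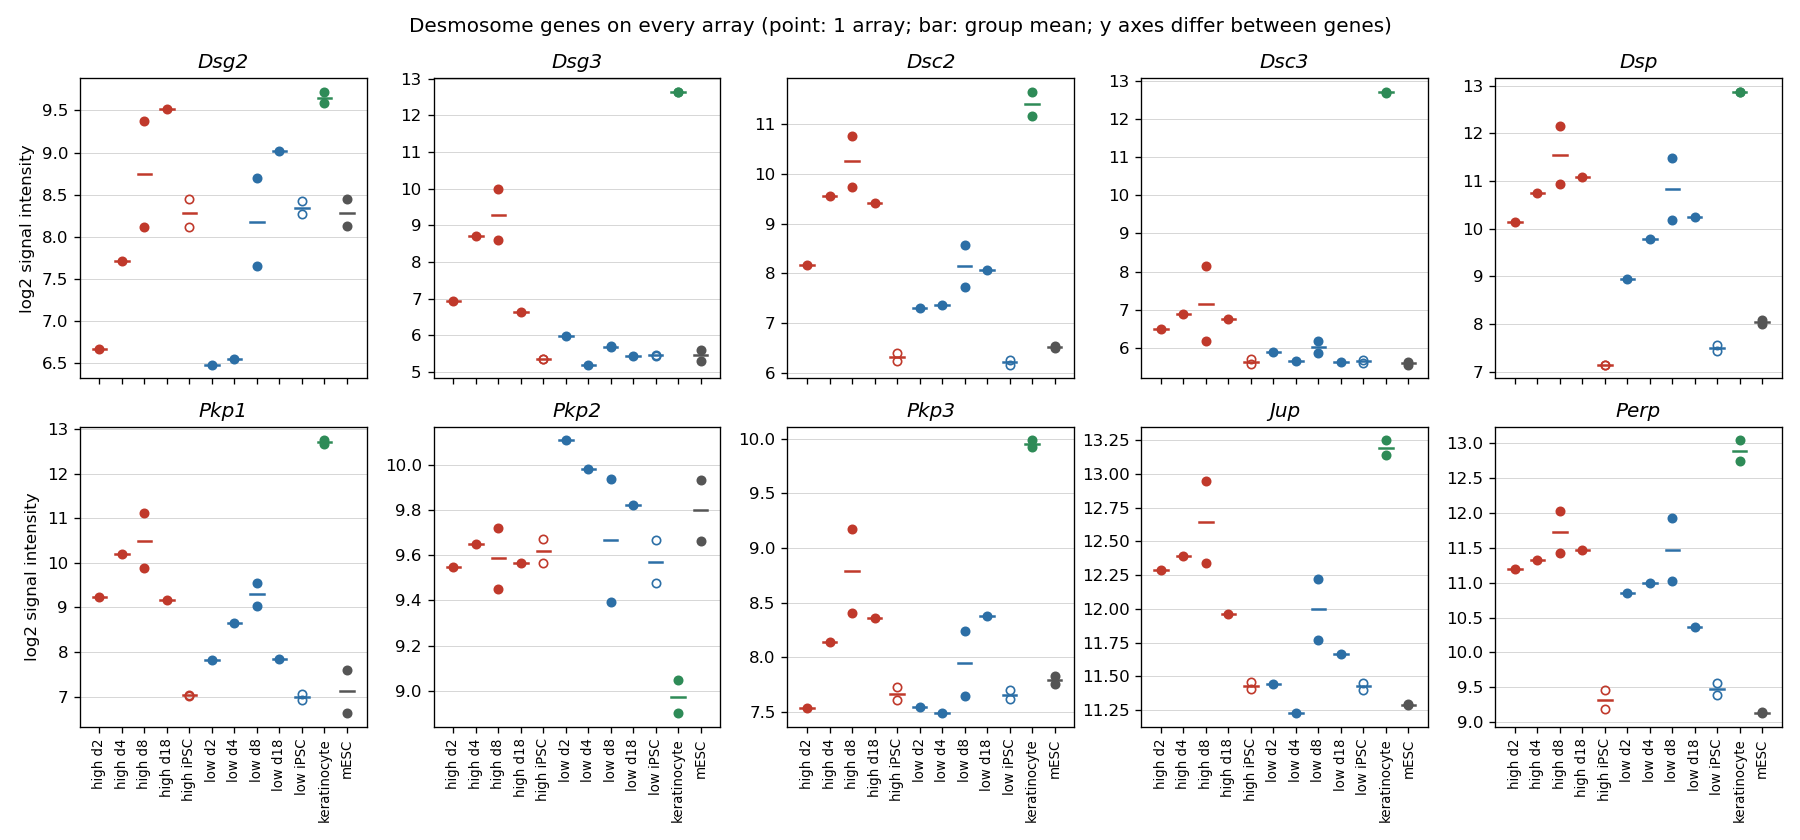
Log2 signal intensity (vertical axis, with its own range in each panel) of the 10 desmosome genes on all 18 arrays, where points are arrays and bars are group means, with high-KLF4 groups in red, low-KLF4 groups in blue, keratinocytes in green, mESCs in grey and iPSC clones as open points. Both keratinocyte arrays are above the other 16 for 9 genes and below them for Pkp2.

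Dsg3, the desmoglein of the lower epidermal layers and the main autoantigen of pemphigus vulgaris in humans, was the member with the widest gap between the cassettes on days 4 and 8. In high-KLF4 cells its signal was 122 (day 2), 421 (day 4), 384 and 1009.5 (day 8) and 98.5 (day 18). In low-KLF4 cells it was 63.0 (day 2), 36.6 (day 4), 51.1 and 52.1 (day 8) and 43.3 (day 18), so no low-KLF4 array reached any high-KLF4 array. The iPSC clones had signals of 40.9 and 40.4 (A10 and H10, from high-KLF4) and 44.3 and 43.3 (A7 and A9, from low-KLF4), keratinocytes 6353 and 6347, and mESCs 39.0 and 48.6. On day 8, Dsg3 rose in high-KLF4 by 3.59 on the log2 scale (SE 0.36, 95% interval 2.77 to 4.41, limma adjusted p = 0.00154), where the low-KLF4 signals of that day cannot be separated from background.

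Dsc2, the most widely used desmocollin, was the other member that passed on day 8. Its signal in high-KLF4 cells was 287 (day 2), 755 (day 4), 859 and 1748 (day 8) and 686 (day 18), and in low-KLF4 cells 157, 164, 212 and 382, and 269 on the same days. The day 8 groups did not overlap, and the high-KLF4 array of day 2 already lay between the low-KLF4 arrays of day 8. The clones A10 and H10 had 75.2 and 84.3, A7 and A9 had 71.4 and 76.3, keratinocytes 2318 and 3218, and mESCs 90.7 and 92.5. Dsc2 rose on day 8 by 2.11 (SE 0.36, 95% interval 1.29 to 2.92, limma adjusted p = 0.0161, 4.30-fold), but without the high-KLF4 day 8 array numbered 2 the difference was 1.59 and no longer passed (adjusted p = 0.0628).

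Dsc3, the desmocollin of the basal epidermis and the partner form of Dsg3, stayed far below its keratinocyte level in all reprogramming cells. High-KLF4 cells had signals of 89.3 (day 2), 119 (day 4), 72.6 and 282 (day 8) and 108 (day 18). Low-KLF4 cells had 59.3, 49.9, 58.0 and 71.7, and 49.7. A single array, high-KLF4 day 8 number 2, stood out, since the other high-KLF4 array of that day was barely above the higher low-KLF4 array. Its clones were at 47.5 and 52.0 (A10, H10) and 51.4 and 48.4 (A7, A9), keratinocytes at 6699.6 and 6629.6, and mESCs at 47.0 and 49.3. The day 8 difference was 1.15 (SE 0.49, 95% interval 0.02 to 2.28) and did not pass (limma adjusted p = 0.3). Without the high-KLF4 day 8 array numbered 1 it was 2.13 and passed (limma adjusted p = 0.000125).

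Dsg2, the desmoglein of simple epithelia and heart muscle, had higher signals on the later days in both cassettes. In high-KLF4 cells its signal was 102 (day 2), 210.2 (day 4), 278 and 663 (day 8) and 734 (day 18). In low-KLF4 cells it was 89.5, 93.7, 202 and 416, and 520.2, and the day 8 groups overlapped. It was also the cadherin gene closest to keratinocytes in pluripotent cells, with 278 and 351 in A10 and H10, 308 and 344 in A7 and A9, 842 and 767 in keratinocytes and 280.4 and 348 in mESCs. The day 8 difference was 0.57 (SE 0.42, 95% interval -0.41 to 1.54, limma adjusted p = 0.62), and it turned to -0.058 without the high-KLF4 day 8 array numbered 2. Between arrays of the same number it was 0.46 for arrays 1 and 0.67 for arrays 2, though the labels do not state such a pairing.

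Dsp, desmoplakin, was the member with the widest gap between day 8 cells and iPSC clones. High-KLF4 cells had signals of 1129 (day 2), 1729.6 (day 4), 1961 and 4581 (day 8) and 2159.6 (day 18). Low-KLF4 cells had 495, 885, 1155 and 2857, and 1213, and the day 8 groups overlapped. Every mCherry+ array was above the clones (142 and 142 in A10 and H10, 189 and 174 in A7 and A9), while keratinocytes had 7439 and 7457 and mESCs 256 and 269.8. The difference on day 8 between the cassettes was 0.72 (SE 0.45, 95% interval -0.30 to 1.75, limma adjusted p = 0.522).

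Of the plakophilins, which cluster the cadherin tails and bind desmoplakin, Pkp1 had the widest range. Pkp1, the form of the upper epidermis, had signals of 598 (day 2), 1168 (day 4), 939 and 2206 (day 8) and 571 (day 18) in high-KLF4 cells. In low-KLF4 cells it had 228, 401, 527 and 752, and 229, below the high-KLF4 array or arrays of the same day throughout. Keratinocytes had 6509 and 6874, clones A10 and H10 131 and 130.1, clones A7 and A9 122 and 134, and mESCs 99.3 and 194. Between the cassettes, the day 8 difference was 1.19 (SE 0.41, 95% interval 0.25 to 2.14, limma adjusted p = 0.182). Without the high-KLF4 day 8 array numbered 1 it was 1.81 and passed (adjusted p = 0.0222).

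Pkp3, a plakophilin of most simple and stratified epithelia, had its highest signals in keratinocytes and on day 8 of high-KLF4. Its signal in high-KLF4 cells was 185 (day 2), 281 (day 4), 339 and 579 (day 8) and 328 (day 18), against 187, 179.7, 201 and 302, and 332 in low-KLF4 cells. The cassettes were thus level on days 2 and 18 and did not overlap on day 8. The clones A10 and H10 had 212 and 195, A7 and A9 had 196 and 208, keratinocytes 971 and 1014, and mESCs 228 and 215. On day 8 its difference was 0.85 (SE 0.25, 95% interval 0.27 to 1.42, limma adjusted p = 0.119), and 1.23 without the high-KLF4 day 8 array numbered 1, where it passed (adjusted p = 0.0123).

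Pkp2, the plakophilin of the heart and of simple epithelia, was the exception among the 10 genes. Its signal in high-KLF4 cells was 749 (day 2), 802 (day 4), 699 and 844 (day 8) and 758 (day 18), against 1103, 1011, 673 and 979.7, and 905 in low-KLF4 cells. It was the member with the narrowest range over the groups (2.19-fold between the highest and the lowest group mean) and the only one with its lowest signals in keratinocytes, 479 and 529, against 757 and 815 in A10 and H10, 712 and 812 in A7 and A9 and 811 and 977 in mESCs. Its day 8 difference was -0.08 (SE 0.19, 95% interval -0.51 to 0.35, limma adjusted p = 0.908).

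Jup, plakoglobin, which serves in adherens junctions as well as desmosomes, was at a high signal throughout. High-KLF4 cells had 5009 (day 2), 5364 (day 4), 5189.8 and 7912 (day 8) and 3984 (day 18). Low-KLF4 cells had 2778, 2399.7, 3492 and 4772, and 3249.8, so the day 8 groups did not overlap. The clones had 2809.6 and 2713 (A10, H10) and 2799.6 and 2704 (A7, A9), keratinocytes 9727 and 9003, and mESCs 2496 and 2510.1. Jup differed on day 8 by 0.65 (SE 0.20, 95% interval 0.19 to 1.11, limma adjusted p = 0.131), and by 0.95 without the high-KLF4 day 8 array numbered 1, where it passed (adjusted p = 0.0139).

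Perp, a target of p63 and p53 that is needed for stable desmosomes in mouse skin, was high in the mCherry+ cells of both cassettes. High-KLF4 cells had signals of 2336 (day 2), 2564 (day 4), 2741 and 4177 (day 8) and 2843 (day 18). Low-KLF4 cells had 1841, 2050.5, 2076 and 3899, and 1323, with overlapping groups on day 8. The clones were lower, with 584 and 705 (A10, H10) and 674 and 753 (A7, A9), and keratinocytes had 8425 and 6857 and mESCs 561 and 566. The difference on day 8 was 0.25 (SE 0.30, 95% interval -0.43 to 0.93, limma adjusted p = 0.788), and it changed sign when the low-KLF4 array numbered 1 (-0.20) or the high-KLF4 array numbered 2 (-0.054) was left out. Between arrays of the same number it was positive, 0.40 for arrays 1 and 0.10 for arrays 2, though the labels do not state such a pairing.

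**Figure D2:**
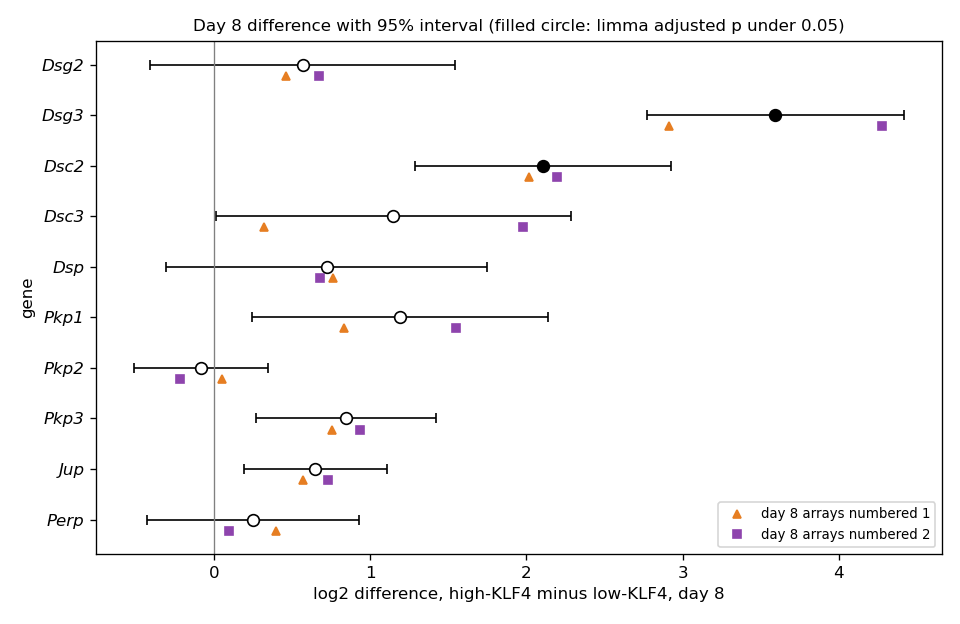
Day 8 log2 difference, high-KLF4 minus low-KLF4 (horizontal axis), for each desmosome gene (rows), with circles for the limma estimate, filled where it passed, bars for its 95% interval, and triangles and squares for the arrays numbered 1 and 2. Dsg3 at 3.59 and Dsc2 at 2.11 passed, and the estimate is above 0 for 9 of 10 genes.

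As a group on day 8, 2 of 10 desmosome genes rose in high-KLF4 against low-KLF4 and 0 fell, where 2.71% of all tested probes rose and 1.29% fell. The median difference was 0.78 over the members and -0.03 over all tested probes. Both high-KLF4 arrays were above both low-KLF4 arrays for 6 members (Dsg3, Dsc2, Dsc3, Pkp1, Pkp3 and Jup), a pattern shown by 16.6% of all tested probes, and 6 members had an unadjusted p under 0.05 (16.2% of all tested probes had). The spread that limma used is shared by all pairs of arrays, and the day 8 pairs were the least alike. For every member, the SD of the high-KLF4 day 8 pair exceeded this spread, as for Dsg3 (0.99 against 0.36). The SEs and intervals of comparisons with these cells are therefore narrower than that pair's own spread would give. In a fit of the 4 day 8 arrays alone, 0 of all 23410 probes were called in limma, members included (adjusted p = 0.391 for Dsg3 and 0.564 for Dsc2), while the log2 differences stayed at 3.59 and 2.11. With the array number as a replicate block, limma called 8 members higher, all but Pkp2 and Perp. That fit called 1752 of the 23410 probes higher and 1195 lower, and the labels do not state that the number marks a shared experiment.

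At day 8 the summed signals of several marker lists also differed between the cassettes. The keratinocyte markers summed to between 10828 and 15771 in high-KLF4 and between 2861 and 4312 in low-KLF4, with 5 of 6 higher on average. The simple epithelium markers (4 genes) summed to between 16477 and 20132 in high-KLF4 and between 7253 and 11446 in low-KLF4. Fibroblast marker sums overlapped between the cassettes, with 5 of 8 markers lower on average in high-KLF4 and 3 higher. The markers of cardiomyocytes (4 genes), a cell type rich in desmosomes, summed to between 769.7 and 978 in high-KLF4 and between 503 and 566 in low-KLF4, against 1219.6 to 1346 in keratinocytes. Their median log2 signal, however, was lower in keratinocytes (7.10 and 7.14) than in high-KLF4 (7.39 and 7.80). The immune markers (4 genes) overlapped in sum between the cassettes, with 4 of 4 higher on average in high-KLF4. The endothelial markers (4 genes) summed to between 529 and 647 in high-KLF4 and between 338 and 344 in low-KLF4. The sum of the pluripotency markers went the other way without overlap, between 2522 and 2639 in high-KLF4 and between 3406 and 3669 in low-KLF4. Gene by gene, 5 of 7 were higher on average in high-KLF4 and 2 lower, with a median log2 difference of 0.42. The part of each of these in the day 8 differences was not tested.

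Most desmosome genes had a higher signal in high-KLF4 from the first day measured. On day 2, with 1 array per cassette and no replicate, 8 of 10 members had a higher signal in high-KLF4 (55.7% of all tested probes had), and Pkp1 (1.39) and Dsp (1.19) were at least 2-fold higher (1.0% of probes). On day 4, 9 of 10 were higher (42.7% of probes) and 6 by at least 2-fold (1.64%): Dsg3 (3.52), Dsc2 (2.21), Pkp1 (1.54), Dsc3 (1.25), Dsg2 (1.17) and Jup (1.16). On day 18, 8 of 10 were higher (43.2% of probes) and 5 by at least 2-fold (0.867%): Dsc2 (1.35), Pkp1 (1.32), Dsg3 (1.18), Dsc3 (1.13) and Perp (1.10). On days 4 and 18 the low-KLF4 signals of Dsg3 (36.6 and 43.3) and Dsc3 (49.9 and 49.7) cannot be separated from background, so the size of these gaps is uncertain.

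The gap in Dsg3 was thus widest on days 4 and 8 and that in Pkp1 lay between 0.83 and 1.55 in every pair. Pkp2 was lower in high-KLF4 on days 2, 4 and 18, by -0.56, -0.33 and -0.26, and Pkp3 was level on days 2 and 18, at -0.01 and -0.02. On day 8, array 1 of high-KLF4 was above array 1 of low-KLF4 for 10 of 10 members (47.2% of all tested probes), 2 of them by at least 2-fold (1.63%), and array 2 above array 2 for 9 of 10 (43.9%), 4 of them by at least 2-fold (4.33%). When the day 8 arrays were paired by number, which the labels do not state to be a real pairing, 8 members (all but Pkp2 and Pkp3) were higher in high-KLF4 in all 5 same-day pairs, against 11.1% of all tested probes.

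With both cassettes and all days in 1 fit (5 against 5 mCherry+ arrays, day as a block), 0 members were called higher and 0 lower in limma, where 0.158% of all tested probes were called higher and 0.00427% lower. At an unadjusted p under 0.05 there were 6 members (15.9% of all tested probes). The differences over the days were 2.57 for Dsg3 (SE 0.52, adjusted p = 0.109), 1.73 for Dsc2 (SE 0.30, adjusted p = 0.092), 1.33 for Pkp1 (SE 0.23, adjusted p = 0.0928) and 0.72 for Jup (SE 0.17, adjusted p = 0.136). For Dsc3, Dsp, Dsg2, Pkp3 and Perp they lay between 1.05 and 0.45, and for Pkp2 at -0.26. The call depended on how arrays were weighted: with limma's array weights, Dsg3, Dsc2, Pkp1 and Jup passed (adjusted p between 0.0196 and 0.0317).

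**Figure D3:**
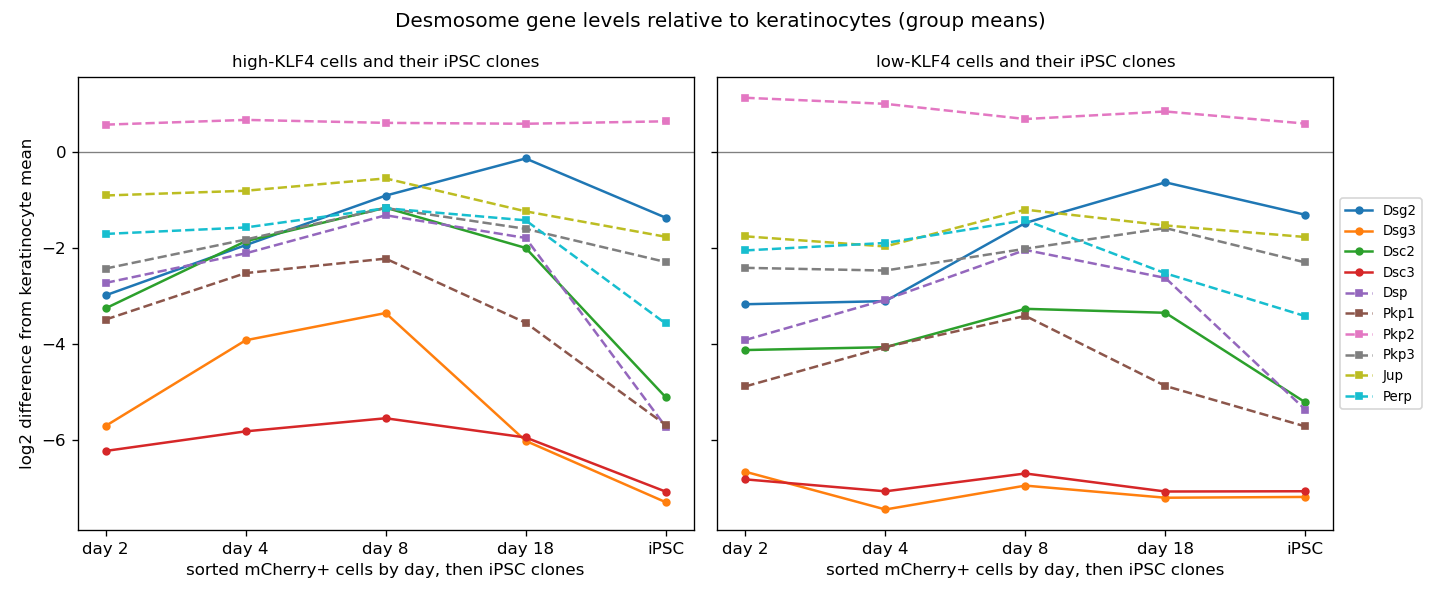
Group mean log2 signal minus the keratinocyte mean of the same gene (vertical axis) on days 2, 4, 8 and 18 and in iPSC clones (horizontal axis), for high-KLF4 on the left and low-KLF4 on the right, with solid lines for cadherin genes and dashed lines for the others. Pkp2 is the only gene above the keratinocyte level at every stage, and Dsg3 in high-KLF4 reaches -3.35 on day 8 against -6.94 in low-KLF4.

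Across the days, 8 of 10 members had their highest mean on day 8 in high-KLF4 cells and 6 of 10 in low-KLF4 cells, while Dsg2 was highest on day 18 in both. The day effects were tested with cassette as a block. Between day 8 and day 2, limma called 0 members in either direction (0.466% of all tested probes were called higher and 0.543% lower), with 5 members at an unadjusted p under 0.05 (16.8% of all tested probes). Dsg2 was higher on day 8 by 1.88 (SE 0.41, adjusted p = 0.0918), Dsp by 1.64 (SE 0.43, adjusted p = 0.13) and Pkp1 by 1.37 (SE 0.32, adjusted p = 0.106), and these 3 passed with array weights. Between day 18 and day 8, Pkp1 fell by 1.40 (SE 0.32, limma adjusted p = 0.0344), the only member called (5.16% of all tested probes were called higher and 6.67% lower). This call was lost when either low-KLF4 day 8 array was left out (adjusted p = 0.0545 and 0.0603). Dsg2 was on average higher on day 18 than on day 8, by 0.81, and did not pass (SE 0.41, adjusted p = 0.283).

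High-KLF4 day 8 cells had higher signals of Dsp, Dsc2, Dsg3, Pkp1, Perp, Jup and Pkp3 than the iPSC clones of the same cassette. Between high-KLF4 day 8 cells and the high-KLF4 clones A10 and H10, 7 of 10 members were called higher on day 8 and 0 lower (13.5% of all tested probes were called higher and 14.7% lower). Their median difference was 1.96, against 0.04 over all tested probes. The SEs that follow rest on the shared spread, which for Dsp was 0.45, against an SD of 0.87 in the high-KLF4 day 8 pair itself. Dsp was 21.1-fold higher on day 8 (4.40 on the log2 scale, SE 0.45, limma adjusted p = 0.000252), Dsc2 differed by 3.94 (SE 0.36, adjusted p = 0.000151), Dsg3 by 3.94 (SE 0.36, adjusted p = 0.000153), Pkp1 by 3.46 (SE 0.41, adjusted p = 0.000544) and Perp by 2.40 (SE 0.30, adjusted p = 0.000656). Jup (1.21, adjusted p = 0.00265) and Pkp3 (1.12, adjusted p = 0.0113) differed less, and Pkp3 did not pass without clone H10 (adjusted p = 0.0726). Dsc3 just missed the threshold, at 1.53 (SE 0.49, adjusted p = 0.0506). Dsg2 differed by 0.46 (95% interval -0.52 to 1.43) and Pkp2 by -0.03 (95% interval -0.46 to 0.40). Fibroblast marker sums were 35999 and 11306 in the high-KLF4 day 8 cells and between 13258 and 14488 in these clones. Most of the clone sums was 1 gene, Fn1, which read 9003 and 8500 there and 9605 and 4517 on day 8. Keratinocyte marker sums were between 10828 and 15771 on day 8, mostly from Krt14, Itga6 and Itgb4. They were between 2840.1 and 2974 in the clones, where Itga6 alone read 2158 and 2306. Their part in the differences was not tested.

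Low-KLF4 day 8 cells stood above the low-KLF4 clones A7 and A9 in desmoplakin, Pkp1, Perp and Dsc2. In all, 4 of 10 members were called higher and 0 lower (8.43% and 10.8% of all tested probes), with a median of 0.47 against 0.06 over all tested probes. The shared spread was 0.45 for Dsp and 0.36 for Dsg3, while the low-KLF4 day 8 pair had an SD of 0.92 and 0.02. The values were 3.32 for Dsp (SE 0.45, limma adjusted p = 0.00169), 2.30 for Pkp1 (SE 0.41, adjusted p = 0.00657), 2.00 for Perp (SE 0.30, adjusted p = 0.00276) and 1.95 for Dsc2 (SE 0.36, adjusted p = 0.00725). Dsg3 differed by 0.24 (95% interval -0.58 to 1.06, limma adjusted p = 0.683), and Jup by 0.57 (adjusted p = 0.0826). For Dsc2, Dsp, Pkp1 and Perp, all 10 mCherry+ arrays of both cassettes were above all 6 arrays of iPSC clones and mESCs, a pattern shown by 6.81% of all tested probes.

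**Figure D4:**
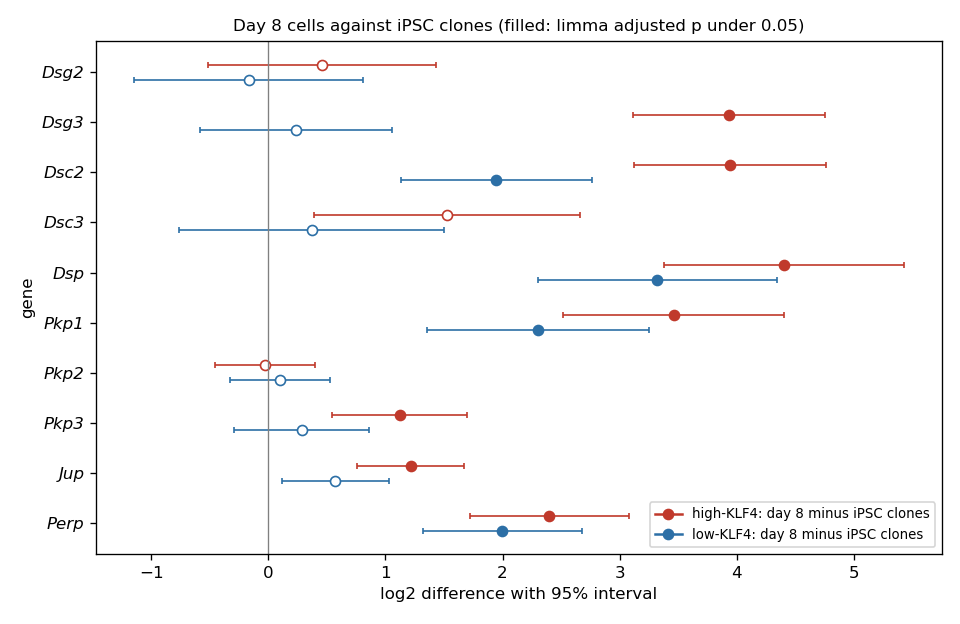
Log2 difference of day 8 cells minus iPSC clones of the same cassette (horizontal axis) for each desmosome gene (rows), high-KLF4 in red above low-KLF4 in blue, with 95% intervals and filled points where limma passed. Dsg3 is at 3.94 in high-KLF4 and 0.24 in low-KLF4, while Dsp is at 4.40 and 3.32.

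The difference between the cassettes was itself compared between day 8 and the clones. It was larger on day 8 for Dsg3, by 3.70 (SE 0.51, limma adjusted p = 0.0165), the 1 member called (0.671% of all tested probes were called higher and 0.154% lower). This call was lost without any 1 of the 4 clones (adjusted p between 0.0883 and 0.098). For Dsc2 the difference was 2.00 larger (SE 0.50, adjusted p = 0.158).

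No desmosome gene was called between kinds of pluripotent cells. Between the high-KLF4 and low-KLF4 iPSC clones, limma called 0 members and 0 of all 23410 probes (0 members and 224 probes at an unadjusted p under 0.05), with member differences between -0.36 and 0.11. Between the 4 clones and mESCs it called 0 members as well, with 0 members and 4231 probes at an unadjusted p under 0.05, where 2.02% of all tested probes were called higher and 2.28% lower. These differences lay between -0.71, for Dsp (95% interval -1.60 to 0.18), and 0.26. The interval for Dsp does not exclude a level in the clones well below that of mESCs. All 4 clones read below both mESC arrays for Dsp: 142 and 142 (A10, H10) and 189 and 174 (A7, A9), against 256 and 269.8. The interval rests on the shared spread of 0.45 for Dsp, while the SD of these clone and mESC pairs was at most 0.08.

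Cultured keratinocytes had the highest signals of nearly all desmosome genes. Both of their arrays were above the other 16 for 9 members, a pattern of 10.5% of all tested probes, and below the other 16 for Pkp2 (10.7% of probes). Against mESCs, 9 members were called higher and 1, Pkp2, lower (17.7% and 20.4% of all tested probes), with a median of 4.29. Dsg3 was higher by 7.19 on the log2 scale (SE 0.36, limma adjusted p = 2.2e-06) and Dsc3 by 7.11 (SE 0.49, adjusted p = 1.3e-05), differences of signal in which the mESC side cannot be separated from background. Pkp1 (5.59), Dsc2 (4.90), Dsp (4.83) and Perp (3.75) came next, then Pkp3 (2.16), Jup (1.90) and Dsg2 (1.36). Pkp2 fell by 0.82 (SE 0.19, limma adjusted p = 0.00789). The Dsg2 call (adjusted p = 0.0339) was lost when any 1 of these 4 arrays was left out (adjusted p between 0.0787 and 0.16), and the Pkp2 call when keratinocyte array 1 or mESC array 2 was (adjusted p = 0.0555 and 0.0588).

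High-KLF4 day 8 cells were below keratinocytes in most members, to very unequal extents. Of the 10, 6 were called lower and 1, Pkp2, higher (11.4% and 13.1% of all tested probes), with a median of -1.17. The shared spread was again below the SD of the high-KLF4 day 8 pair, as for Dsc3 (0.49 against 1.39). The epidermal cadherins were the farthest away, Dsc3 at -5.54 (SE 0.49, limma adjusted p = 0.000119) and Dsg3 at -3.35 (SE 0.36, adjusted p = 0.000315), followed by Pkp1 at -2.22 (SE 0.41, adjusted p = 0.00532). Perp (-1.17), Pkp3 (-1.16) and Dsc2 (-1.16) passed more narrowly, as did Pkp2 (0.61, adjusted p = 0.0453). Dsp (-1.31, adjusted p = 0.0671), Dsg2 (-0.90) and Jup (-0.55) did not pass. With either keratinocyte array left out, the 7 calls were 3: Dsc3, Dsg3 and Pkp1. The fibroblast marker sums of 35999 and 11306 in the day 8 cells stood against 5307 and 5120.2 in keratinocytes, where Fn1 alone read 4302 and 3990. The part of the fibroblast markers in the differences was not tested.

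Low-KLF4 day 8 cells were called lower than keratinocytes in 9 members and higher in 1, Pkp2 (12.4% and 13.5% of all tested probes), with a median of -2.02. Dsg3 was at -6.94 (SE 0.36, limma adjusted p = 5.38e-06) and Dsc3 at -6.69 (SE 0.49, adjusted p = 3.77e-05), and the other lower members lay between -3.41 for Pkp1 and -1.20 for Jup. Without keratinocyte array 1 the 10 calls were 6, the lost ones being Dsg2, Dsp, Perp and Pkp2. The comparisons of high-KLF4 and of low-KLF4 cells with keratinocytes share the keratinocyte arrays. They also share the spread, which for Dsp (0.45) was below the SD of the low-KLF4 day 8 pair (0.92) and for Dsg3 (0.36) above it (0.02).

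In the order of the 12 group means, few neighbours differed by more than the 95% range of their gap, where single arrays were taken to vary like the pairs. This range is not adjusted for the number of gaps or probes. Keratinocytes were first and beyond the next group for Dsg3, Dsc2, Dsc3, Dsp, Pkp1, Pkp3, Jup and Perp, and last and beyond the next group for Pkp2. For Dsp and Jup that next group was high-KLF4 day 8, and the same difference did not pass after adjustment (limma adjusted p = 0.0671 and 0.0846). For Dsg2, none of the 11 neighbouring gaps exceeded the range. The other gaps that did were between high-KLF4 days 4 and 2 for Dsg3, between high-KLF4 days 18 and 2 for Dsc2, and between low-KLF4 day 18 and the low-KLF4 clones for Perp. Between the highest and the lowest group mean, the signal differed 52.5-fold for Dsp, 52.4-fold for Pkp1, 37.0-fold for Dsc2, 13.5-fold for Perp, 8.98-fold for Dsg2, 5.52-fold for Pkp3 and 3.90-fold for Jup. For Dsg3 and Dsc3 the lowest groups had the dimmest signals of any member, and no ratio is given.

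Over the 12 group means most members other than Pkp2 varied together, with Dsg2 the least alike. All 36 pairs among the 9 genes without Pkp2 had a positive Pearson r, with a median of 0.825, from 0.18 for Dsg2 and Perp to 0.951 for Dsc2 and Pkp1. Dsg2 was close to Pkp3 only (r = 0.742), and with the others its r lay between 0.18 and 0.47 (Dsc3). On ranks (Spearman rho) these were 0.82 for Pkp3 and between 0.20 (Pkp1) and 0.48 (Dsp) for the others. The share of positive pairs among other genes was not counted. All 9 pairs with Pkp2 were negative, between -0.827 and -0.484. These are descriptions with no p: the points share arrays, normalization and cells of the same origin, and the keratinocyte point is the extreme for every member.

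The genes most like each member over the same 12 means, were chosen by Pearson r, as a description with the keratinocyte point as an extreme. Dsg2 was most like Ap1m2 (r = 0.977), a subunit of the epithelial clathrin adaptor, and Kdf1 (r = 0.971), a regulator of keratinocyte differentiation. Dsg3 was most like Cers3 (r = 0.991), a ceramide synthase of the skin barrier, and Serpinb5 (r = 0.987), the serpin maspin. Dsc2 was most like Nt5e (r = 0.982), the ecto-5′-nucleotidase CD73, and Elovl7 (r = 0.965), a fatty acid elongase. The genes closest to Dsc3 were Muc15 (r = 0.995), a membrane mucin, and Lce1a1 (r = 0.991), a late cornified envelope gene. Both were dim: Muc15 read 55.3 in high-KLF4 day 8 cells, 37.8 in mESCs and 347 in keratinocytes, and Lce1a1 50.7, 40.4 and 170.

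Among the plaque genes and Perp, Dsp was most like Pik3ca (r = 0.974) and Dusp22 (r = 0.964), which encode a PI3-kinase catalytic subunit and a phosphatase, though Pik3ca itself spanned only 0.77 on the log2 scale. Pkp1 was most like Plekha6 (r = 0.981) and Lipm (r = 0.980), a lipase of the epidermis. Jup was most like Esrp2 (r = 0.968), an epithelial splicing regulator, and again Plekha6 (r = 0.967). Pkp3 was most like Atp2c2 (r = 0.972) and Smox (r = 0.966), and Perp like Spag9 (r = 0.985) and Cnot6l (r = 0.973). Pkp2 stood nearest to the histone gene H2bc3 (r = 0.941) and to Tfap4 (r = 0.930).

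Genes that work beside the desmosome were read from 6 lists, on day 8 between high-KLF4 and low-KLF4 cells. Of all tested probes, 2.71% rose and 1.29% fell in this comparison, with a median of -0.03. Of 13 keratins, whose filaments end on desmoplakin, 7 rose and 0 fell, with a median of 1.39. Krt16, a stress keratin, read 2255 and 2759.6 for high-KLF4 and 124 and 119 for low-KLF4 (4.36, SE 0.19, limma adjusted p = 2.92e-05), and Krt14, a basal keratin, 3779.9 and 5459 against 315 and 251 (4.01, SE 0.18, the same adjusted p). Of 7 plakins and cornified envelope partners 2 rose and 0 fell, with a median of 0.73: Evpl, envoplakin, by 0.87 (SE 0.20, limma adjusted p = 0.0494) and Ivl, involucrin, by 0.71 (SE 0.12, adjusted p = 0.0167).

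Of 7 proteases and inhibitors that act on desmosomes, 3 rose and 0 fell (median 0.34). For this list and those that follow, 2.71% of all tested probes rose and 1.29% fell. Klk8 read 848 and 1181 for high-KLF4 and 166 and 122 for low-KLF4 (2.82, SE 0.21, limma adjusted p = 0.000416), and Klk7, which cleaves corneodesmosomes in the skin, 213 and 486 for high-KLF4 and 111 and 101 for low-KLF4 (1.61, SE 0.31, adjusted p = 0.0259). Of 11 adherens junction genes, 1 rose and 0 fell (median 0.42): Nectin1 rose by 0.64 (SE 0.14, limma adjusted p = 0.0407). Of 12 measured epithelial and mesenchymal transcription factors, 1 rose and 0 fell (median -0.10). It was Ovol1, a repressor of mesenchymal genes, which read 445 and 974 for high-KLF4 and 147 and 174 for low-KLF4 (2.04, SE 0.34, limma adjusted p = 0.0157). None of 4 measured other desmosomal isoforms was called in limma (median 0.15), and Dsg1a and Dsc1 had no probe of their own. In the fit of the 4 day 8 arrays alone, where 0 of all tested probes were called in limma, none of the named genes passed, and the calls of Evpl, Ivl, Nectin1, Klk7 and Ovol1 were also lost without low-KLF4 day 8 array 2 (adjusted p between 0.0512 and 0.147).

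Against the high-KLF4 clones, the same lists were called higher on day 8 in 11 of 13 keratins, 6 of 7 proteases and inhibitors, 5 of 7 plakins and partners, 2 of 11 adherens junction genes, 1 of 12 transcription factors and 1 of 4 other isoforms (13.5% of all tested probes). Lower calls were 1 adherens junction gene and 2 transcription factors (14.7% of all tested probes). Against keratinocytes, high-KLF4 day 8 cells were called lower in 5 of 7 proteases and inhibitors, 5 of 11 adherens junction genes, 5 of 12 transcription factors, 4 of 13 keratins, 3 of 7 plakins and partners and 1 of 4 other isoforms (11.4% of all tested probes), and higher in 3 keratins, 2 transcription factors and 1 plakin or partner (13.1%).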

How the data were processed

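RNA of 18 samples was hybridised to Affymetrix GeneChip Mouse Gene 1.0 ST arrays, 1 sample per array. The authors normalized the arrays by RMA in GeneSpring, which corrects background, quantile-normalizes and summarises the probes of each transcript cluster, and the deposited values are signal intensities on a linear scale. Quantile normalization gives all arrays nearly the same distribution, so differences are relative to all probes. Tables of the authors' fold changes were not used.

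Log2 was taken of every intensity. Of 28853 probes, 21789 carried 1 gene symbol, 1621 several and 5443 none, and the 23410 with at least 1 symbol were tested. A limma fit (limma 3.58.1, R 4.3.3) over 12 groups estimated 1 mean per group, with a spread shared by the 6 groups with 2 arrays (6 residual and 2.25 prior degrees of freedom), and a second, of the 10 mCherry+ arrays, had cassette and day as additive terms (5 residual and 2.08 prior). Benjamini-Hochberg adjustment ran over all tested probes, with calls at 0.05, and both fits were tested on simulated data. Days 2, 4 and 18 had 1 array per cassette and are given as values, with 2-fold as a mark of size. The number of arrays limits the precision, and p-values measure only the spread between these arrays.

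The named genes were the 10 members, the 2 largest rises and falls called on day 8 in each of 6 related lists, and the 2 genes most like each member over the 12 group means. Members, lists and tests were chosen with earlier results of these data known. Symbols come from the platform annotation, and positions and promoters from RefSeq on GRCm38.p6. Alternatives were array weights, limma-trend, quantile normalization once more, a filter that left out the dimmest 30% of probes, adjustment over single-symbol probes, leaving out arrays or days, the 4 day 8 arrays alone and a replicate block. Figures were drawn with matplotlib 3.10.9 and summaries made with pandas 2.3.3 and numpy 2.4.6 in Python 3.11.15.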

Additional observations from a re-analysis of the deposited data

Results flagged for a closer look

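Dsg3 was flagged because the effect of the cassette differed between stages: the difference of high-KLF4 minus low-KLF4 was 3.70 larger on the log2 scale on day 8 than in the iPSC clones (SE 0.51, limma adjusted p = 0.0165, the only desmosome gene called). Both day 8 high-KLF4 arrays (384 and 1009.5) were above both day 8 low-KLF4 arrays (51.1 and 52.1), while clones A10 and H10 (40.9 and 40.4) were slightly below A7 and A9 (44.3 and 43.3). The values without each clone in turn lay between 3.69 and 3.72, with adjusted p between 0.0883 and 0.098.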

How the results depend on the processing

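Over 12 results, 120 alternatives were run. For the count of members called on day 8 between high-KLF4 and low-KLF4 (2), the fit of the 4 day 8 arrays alone gave 0, and leaving out single arrays gave 1 (Dsg3, without high-KLF4 array 2) to 6 (without high-KLF4 array 1). With array weights, 4 members instead of 0 were called over all days, 3 instead of 0 between day 8 and day 2, and 0 instead of 1 between day 18 and day 8. Leaving out single arrays gave 6 to 8 calls (7) for high-KLF4 day 8 against its clones, 4 to 5 (4) for low-KLF4 day 8 against its clones, 3 to 9 (7) for high-KLF4 day 8 against keratinocytes, 6 to 9 (10) for low-KLF4 day 8 against keratinocytes, 8 to 9 (10) for keratinocytes against mESCs, 0 to 3 (1) for the difference between the cassettes on day 8 and in the clones, 0 to 1 (1) for day 18 against day 8, and 0 to 0 for the comparisons among pluripotent cells. The cause of these changes was not tested.

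The number of the day 8 arrays as a replicate block gave 8 calls (all but Pkp2 and Perp) and 1752 probes higher and 1195 lower in all. The labels do not say that the number marks a shared experiment. The differences between arrays 2 and 1 correlated between the cassettes on day 8 (r = 0.735 over probes), but not between high-KLF4 day 8 and keratinocytes (r = -0.033) or keratinocytes and mESCs (r = 0.014). A replicate block over day 8, keratinocytes and mESCs gave 6 calls (7 without it) for high-KLF4 day 8 against keratinocytes and 10 (10 without it) for keratinocytes against mESCs.

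Of 761 alternative values of single members, 678 kept direction and side of the threshold, 40 lost the call, 32 gained it and 11 turned sign, none of these called in the main fit. With single arrays left out, the day 8 difference between the cassettes ran over -0.058 to 1.20 for Dsg2, -0.20 to 0.70 for Perp (-0.054 without high-KLF4 array 2) and -0.35 to 0.19 for Pkp2 (0.056 without high-KLF4 array 1). Against the high-KLF4 clones, Dsg2 ran over -0.17 to 1.09 and Pkp2 over -0.17 to 0.10 (0.022 without clone H10). Against the low-KLF4 clones, Dsg2 ran over -0.69 to 0.35, Pkp2 over -0.18 to 0.37 and Pkp3 over -0.011 to 0.58. For the 8 named genes of related lists, whose alternatives were chosen after seeing the data, 66 of 88 values kept the call and 22 lost it. Each member had 1 probe of its own, so averaging probes gives the same values. A lone array was assumed to vary like the pairs.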
